A study of Mus musculus with 12 samples.

Results

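The cytochromes P450 of families 1 to 4 were followed in mouse liver after lipopolysaccharide (LPS), in 12 livers on 12 whole-transcript arrays. They were taken as every gene whose annotated symbol is Cyp, one digit from 1 to 4, and a letter, on probe sets that carry a single symbol. This gave 70 of the 19938 genes measured: 3 of family 1, 45 of family 2, 6 of family 3 and 16 of family 4, in 21 subfamilies. Each had 1 probe set, and 3 are pseudogenes in the RefSeq gene table (Cyp2d13, Cyp2d37-ps and Cyp4f41-ps).

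All mice were males on the C57Bl/6 background, and each group held 4 livers: wild type (WT) without treatment, WT dosed with 1 µg/kg of LPS, and S534A dosed alike. S534A mice are homozygous for a knock-in that exchanges serine for alanine in p65, an NF-kB subunit whose gene is Rela. The line came from PTL1 embryonic stem cells, in which 2 targeted clones were found, lost its Neo cassette through FLPe and was backcrossed 5 times to C57Bl6/J. The sources used here do not give the division of the mice between clones or the time from LPS to collection. With no untreated S534A group analysed, a genotype difference that predates LPS cannot be told apart from an altered response. Array names follow one scheme in the untreated group and another in the LPS groups. If the arrays were run separately, run and LPS cannot be told apart.

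P450 enzymes are heme-containing monooxygenases of the endoplasmic reticulum. In liver, families 1 to 3 oxidise drugs, other foreign compounds, steroids and bile acids, and family 4 mainly hydroxylates fatty acids and eicosanoids. Their transcription depends on ligand-activated receptors, among them AHR for Cyp1a, CAR (Nr1i3) for Cyp2b, PXR (Nr1i2) for Cyp3a and PPARalpha (Ppara) for Cyp4a. Inflammation is known to lower the hepatic level of many of them.

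Values are log2 RMA values, so a difference of 1 is a factor of 2. "Called" means that limma gave an adjusted p (Benjamini-Hochberg, 19938 genes) under 0.05, and "rose" and "fell" are used only of called genes. Array medians lay between 6.15 and 6.32, and the number of arrays limits precision. No label states outright that the livers of a group came from different animals, and the p-values then describe only how far these samples spread. Of the 70 genes, 45 lay above the median of all probe sets (6.21) in at least 4 arrays and 25 did not. Hepatocyte markers were present on all arrays, with Alb, which encodes albumin, between 13.97 and 14.07. Rela read 9.96 ± 0.14 (SD, n = 4) untreated, 11.11 ± 0.08 in WT LPS and 11.20 ± 0.06 in S534A LPS livers, but its probe set cannot see the substitution and does not check the genotype. Bulk RNA cannot tell fewer cells of a type from less RNA per cell.

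Other cell types moved with LPS as well. Of 13 neutrophil markers, 10 rose in each LPS group, and their summed linear level went from 924 to 2010 untreated to 12200 to 13300 in WT LPS and 12300 to 13600 in S534A LPS livers. Between the LPS groups 2 of the 13 were called higher in S534A (Retnlg by 0.68 ± 0.10 and S100a9 by 0.52 ± 0.09), 12 had a higher mean (median difference 0.45) and 6 did not overlap. Of 12 Kupffer cell markers 5 fell and 1 rose in WT LPS, and of 13 sinusoidal endothelial markers 7 fell and 1 rose. The summed level of 14 exocrine pancreas genes was 893 to 1180 untreated, and replicate 2 (7358) and replicate 3 (1839) of WT LPS and replicate 3 of S534A LPS (12989.5) stood above the other LPS arrays (1083 to 1283). Counts are therefore also given without these 3 arrays. The part of these cell types in the P450 results was not tested.

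The 3 marker genes of the set show its different courses, and the 250 bases before their RefSeq starts (GRCm38.p6) are given 5′ to 3′ on the gene's strand. Capitals mark matches, on either strand, to the nuclear receptor recognition hexamer AGGTCA, the HNF4-type site CAAAGTCCA and the TATA motif TATAAA; the kB site of the immunoglobulin kappa enhancer was searched too. A hexamer on the other strand reads TGACCT. No marked stretch belongs to more than 1 motif. The windows are chr7:25897408-25897657 (plus strand) for Cyp2b10, chr5:145879855-145880104 (minus strand) for Cyp3a11, and chr5:146009619-146009868 (minus strand) for Cyp3a25.
Cyp2b10: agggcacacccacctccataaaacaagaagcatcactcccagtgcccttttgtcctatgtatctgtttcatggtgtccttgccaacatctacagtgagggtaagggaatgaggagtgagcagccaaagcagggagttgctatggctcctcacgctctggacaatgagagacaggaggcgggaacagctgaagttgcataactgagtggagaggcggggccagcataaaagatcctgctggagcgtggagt
Cyp3a11: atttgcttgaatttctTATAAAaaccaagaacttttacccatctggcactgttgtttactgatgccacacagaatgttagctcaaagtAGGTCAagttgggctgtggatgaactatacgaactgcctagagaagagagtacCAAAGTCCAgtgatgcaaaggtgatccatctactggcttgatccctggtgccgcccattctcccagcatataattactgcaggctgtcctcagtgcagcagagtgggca
Cyp3a25: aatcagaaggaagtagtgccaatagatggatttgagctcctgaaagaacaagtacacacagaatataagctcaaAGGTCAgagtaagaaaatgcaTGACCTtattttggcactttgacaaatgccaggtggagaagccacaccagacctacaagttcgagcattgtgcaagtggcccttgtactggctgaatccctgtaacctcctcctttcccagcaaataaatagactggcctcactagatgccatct
The Cyp3a11 window holds AGGTCA, CAAAGTCCA and TATAAA once each, 162, 109 and 234 bases upstream of the start. The Cyp3a25 window, for 1 of 2 listed starts, holds the hexamer 2 times, once on each strand, and the Cyp2b10 window holds none of the 4 motifs.

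Promoter windows matched 54 of the 70 genes. AGGTCA stood in 14 of these (25.9%), against 13.8% of all 27025 windows of the same length, and among the 14 are 4 Cyp3a genes (Cyp3a11, Cyp3a25, Cyp3a44 and Cyp3a57). CAAAGTCCA stood in 6 (11.1%, against 0.381%), 4 of them Cyp2c genes. TATAAA stood in 21 (38.9%, against 13.0%) and the kB site in 0 (against 0.13%). A match is only a description of these letters, and neighbouring P450 genes share sequence by descent.

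The first comparison asks what LPS changed in WT liver. More P450 genes fell than rose: 20 of 70 fell (28.6%, against 15.6% of all genes) and 1 rose (against 9.34%). The median difference was -0.13, against 0.02 over all genes. The falls included the vitamin D 25-hydroxylase Cyp2r1, the fatty acid hydroxylases Cyp2u1, Cyp4a31 and Cyp4a10, and Cyp3a25, and the gene that rose was Cyp2b10. By range, 20 genes had all WT LPS values below all untreated ones (14.9% of all genes did) and 3 had them above (9.78%). Only 3 falls reached 2-fold (Cyp4a31, Cyp2u1 and Cyp2c38). Of 17 P450 genes outside families 1 to 4, 2 fell and 0 rose. General hepatocyte markers moved too: 4 of 12 fell and 0 rose. Their median was -0.11 and they ranged from -0.20 to 0.21, against -1.59 to 1.87 for the 70 P450 genes.

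**Figure D1:**
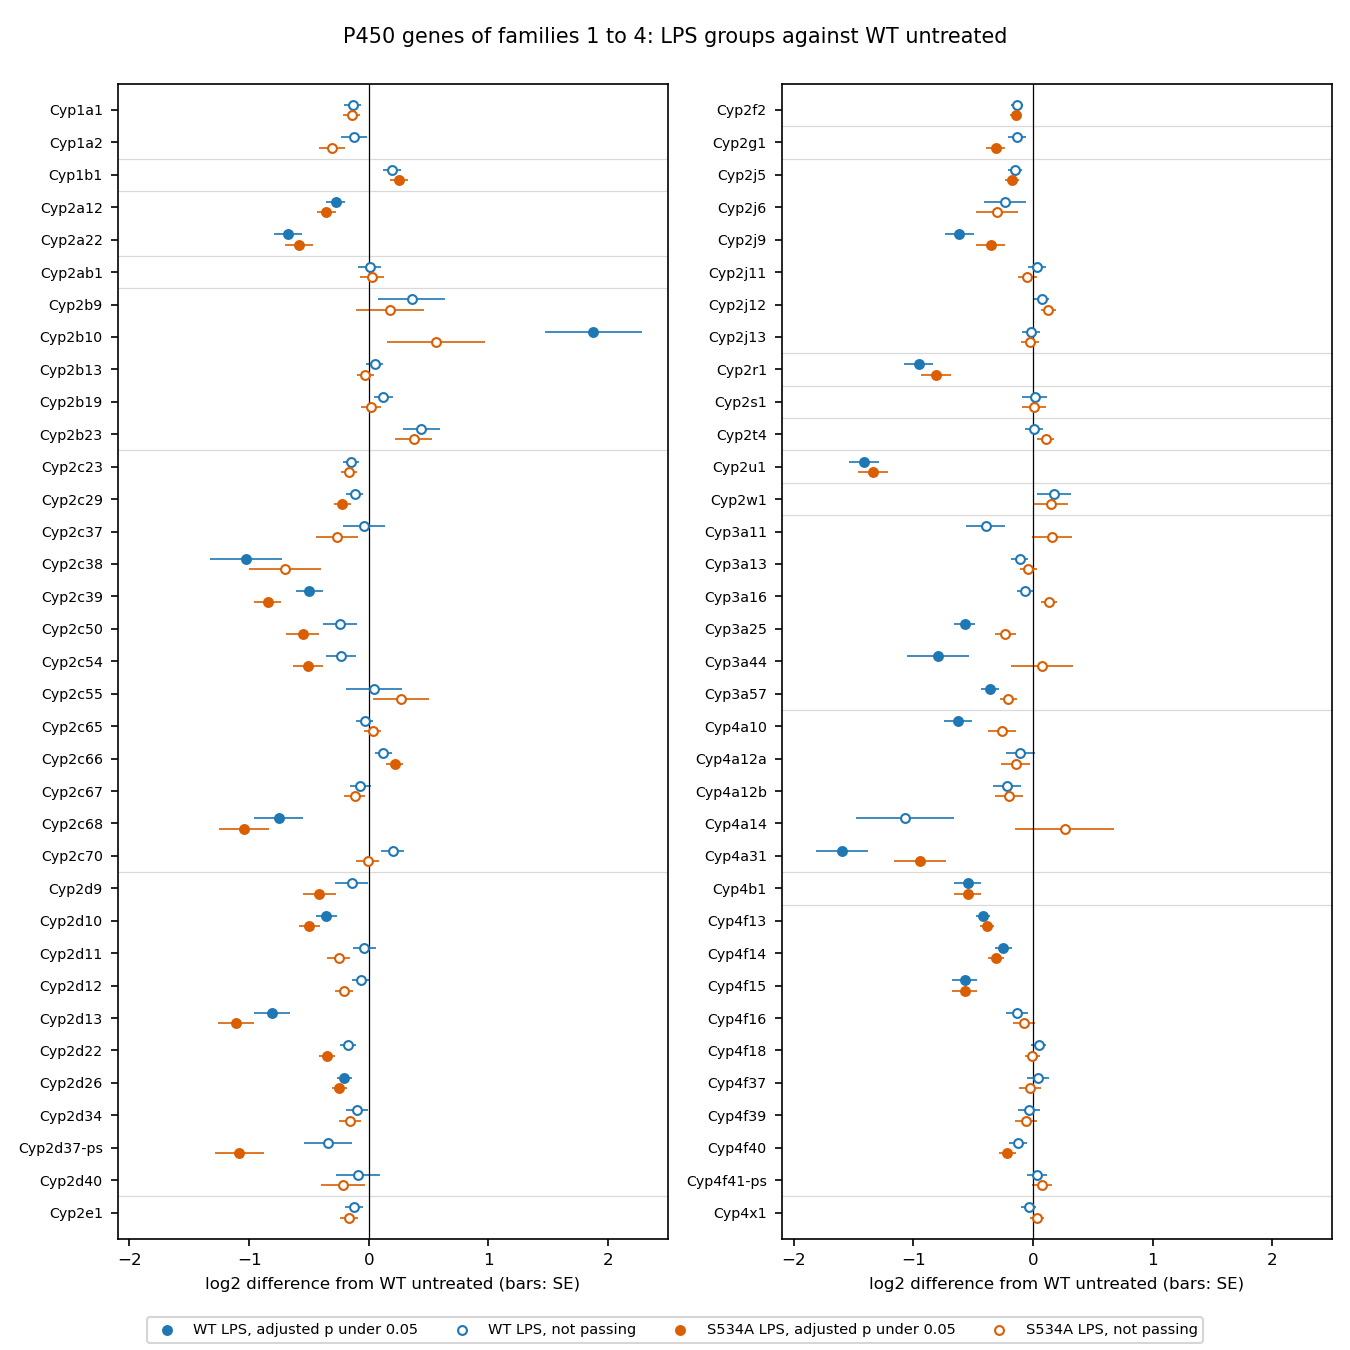
Log2 difference of each of the 70 P450 genes from WT untreated, with its standard error, for WT LPS (blue) and S534A LPS (orange); filled points are called, and grey lines part the subfamilies. Called points lie mostly left of 0, Cyp2b10 in WT LPS stands farthest right at 1.87, and both sets of points share the untreated arrays.

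Without the 3 arrays that carried pancreas transcripts, 12 of the 70 genes fell, against 8.75% of all genes, and 1 rose, against 7.43%. The genes no longer called were Cyp2a12, Cyp2c38, Cyp2c68, Cyp2d26, Cyp3a44, Cyp3a57, Cyp4b1 and Cyp4f14. That comparison sets 2 WT LPS arrays against 4 untreated ones.

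Cyp2b10 (probe set 10551197), the phenobarbital-inducible CAR target, read 8.00, 9.27, 7.98 and 8.78 untreated and 10.76, 9.95, 11.02 and 9.81 in WT LPS livers. All 4 WT LPS values lay above all untreated ones, a 3.67-fold rise (log2 difference 1.87 ± 0.41, SE; limma adjusted p = 0.00427). The S534A LPS values of 7.95, 9.11, 9.60 and 9.62 overlapped the untreated ones (0.56 ± 0.41; adjusted p = 0.355). The untreated livers differed among themselves, with replicates 2 and 4 above replicates 1 and 3. Against replicates 2 and 4 alone the WT difference was 1.36 (adjusted p = 0.0513), and against replicates 1 and 3 alone 2.39 (adjusted p = 0.00268). The other 4 Cyp2b genes were not called in either comparison with untreated liver. The nearest was Cyp2b23 at 0.44 ± 0.16 in WT LPS (adjusted p = 0.0571), which was called without WT LPS replicate 1 (0.52; adjusted p = 0.0345), with trend and robust eBayes, after a second quantile normalisation or median centring, and with the filter on dim genes. In S534A it was 0.38 ± 0.16 higher (adjusted p = 0.0974), which was called without WT LPS replicate 2 (adjusted p = 0.0103), with only those groups in the fit and without the 3 arrays with pancreas transcripts.

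Cyp2u1 (probe set 10502214), a hydroxylase of long-chain fatty acids, read 10.00, 9.87, 9.80 and 9.56 untreated, 8.15, 8.63, 8.35 and 8.44 in WT LPS and 8.48, 8.19, 8.57 and 8.66 in S534A LPS livers. Every LPS value lay below every untreated one. It fell 2.66-fold in WT (-1.41 ± 0.13; adjusted p = 3.91e-06) and 2.52-fold in S534A (-1.33 ± 0.13; adjusted p = 4.96e-06).

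Cyp2r1 (probe set 10567086), which makes 25-hydroxyvitamin D, read 9.44, 9.17, 9.60 and 9.55 untreated, 8.73, 8.11, 8.56 and 8.54 in WT LPS and 8.55, 8.65, 8.74 and 8.58 in S534A LPS livers. Neither LPS group overlapped the untreated livers. It fell by 0.95 ± 0.12 in WT (adjusted p = 9.99e-05) and by 0.81 ± 0.12 in S534A (adjusted p = 0.000293).

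**Figure D2:**
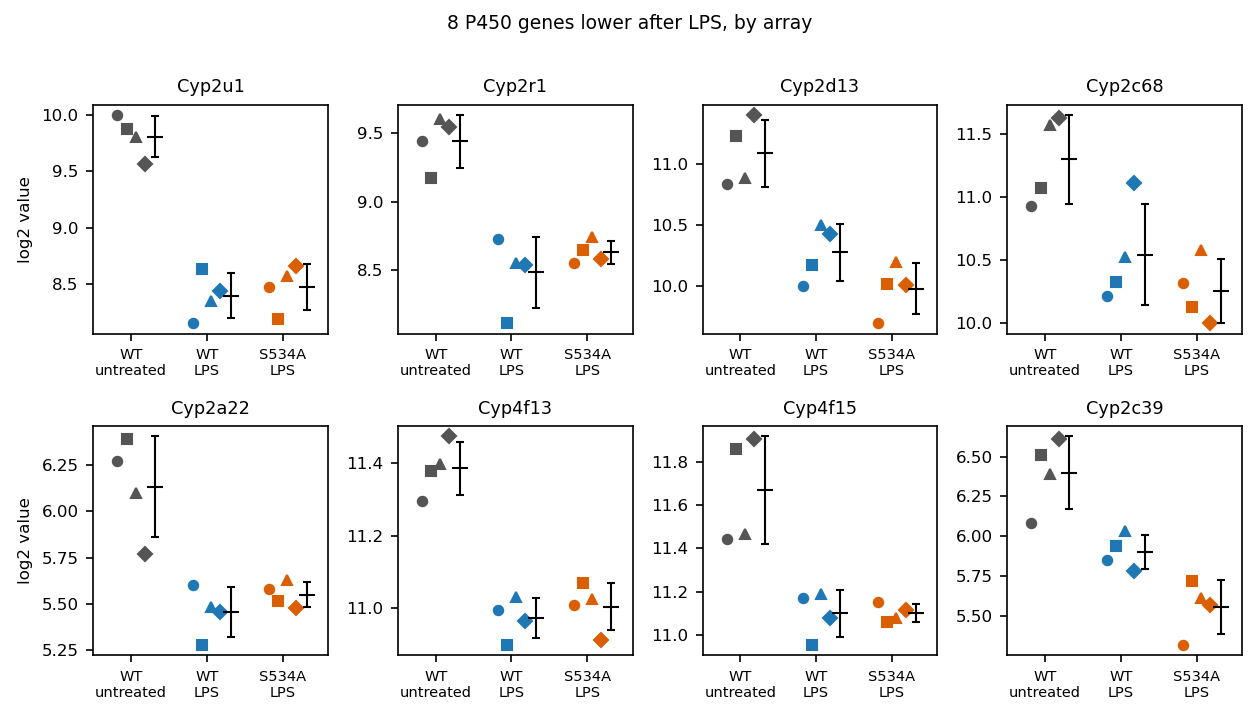
Log2 values of 8 P450 genes by group, 1 point per liver with the shape giving the replicate number, and the mean with its SD beside them. In Cyp2u1, Cyp2r1, Cyp2d13, Cyp2a22, Cyp4f13, Cyp4f15 and Cyp2c39 no LPS value reached the untreated range; in Cyp2c68 one WT LPS liver (11.11) did.

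In the Cyp2c subfamily, which metabolises drugs and arachidonic acid, 3 of 13 genes fell in WT LPS (Cyp2c38, Cyp2c39 and Cyp2c68). Cyp2c39 (probe set 10463037) read 6.08, 6.51, 6.39 and 6.61 untreated, 5.85, 5.94, 6.03 and 5.78 in WT LPS and 5.32, 5.72, 5.61 and 5.57 in S534A LPS livers. The 3 groups did not overlap, and the falls from untreated were 0.50 ± 0.11 in WT (a difference of -0.50; adjusted p = 0.00614) and 0.84 in S534A (-0.84 ± 0.11; adjusted p = 0.00011). All LPS values of Cyp2c39 lay below the median of all probe sets (6.21), and the filter on dim genes removed it.

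Cyp2c68 (probe set 10467385) read 10.92, 11.07, 11.57 and 11.62 untreated, 10.21, 10.32, 10.52 and 11.11 in WT LPS and 10.32, 10.13, 10.58 and 10.00 in S534A LPS livers. It fell by 0.75 ± 0.21 in WT (adjusted p = 0.018) and 2.06-fold in S534A (-1.04 ± 0.21; adjusted p = 0.00218). The WT call was lost without untreated replicate 3 or 4 or WT LPS replicate 1 (adjusted p 0.0504 to 0.0531, differences -0.66 to -0.64).

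Cyp2c38 (probe set 10467372) read 7.91, 9.03, 9.01 and 9.42 untreated and 8.28, 7.10, 8.10 and 7.80 in WT LPS livers, so untreated replicate 1 lay within the LPS range. Its WT fall of 2.03-fold (-1.02 ± 0.30; adjusted p = 0.0245) was no longer called without untreated replicate 2, 3 or 4 or WT LPS replicate 2 or 4 (adjusted p 0.0544 to 0.0719). In S534A LPS livers it read 8.32, 8.23, 8.21 and 7.82 (-0.70 ± 0.30; adjusted p = 0.11), which was called without untreated replicate 1 (-1.01; adjusted p = 0.00747). Several other Cyp2c genes were not called in WT LPS: Cyp2c29 differed by -0.12 (95% interval -0.27 to 0.04) and Cyp2c70, which takes part in making the muricholic bile acids, by 0.20 (-0.01 to 0.41).

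In the Cyp2d subfamily all 10 genes had lower means after LPS in WT, and 3 fell (Cyp2d13, Cyp2d10 and Cyp2d26). The pseudogene Cyp2d13 (probe set 10430883) read 10.83, 11.23, 10.88 and 11.40 untreated, 10.00, 10.17, 10.50 and 10.42 in WT LPS and 9.70, 10.01, 10.20 and 10.01 in S534A LPS livers. It fell by 0.81 ± 0.15 in WT (adjusted p = 0.00147) and by 1.11 ± 0.15 in S534A (adjusted p = 0.000111). Cyp2d10 and Cyp2d26, by -0.36 ± 0.09 and -0.20 ± 0.06, moved less. Cyp2d genes share long stretches of sequence, and how their probe sets divide the signal was not tested.

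Both measured Cyp2a genes fell in WT LPS. Cyp2a22 (probe set 10561162) read 6.27, 6.39, 6.10 and 5.77 untreated, 5.60, 5.28, 5.48 and 5.46 in WT LPS and 5.58, 5.51, 5.63 and 5.48 in S534A LPS livers, near or below the median of all probe sets. Neither LPS group overlapped the untreated one, and it fell by 0.68 ± 0.12 in WT (adjusted p = 0.000873) and by 0.58 ± 0.12 in S534A (adjusted p = 0.0021). Cyp2a12, a steroid hydroxylase, fell by 0.28 ± 0.08 in WT, a call lost without untreated replicate 4 or WT LPS replicate 1 or 2 (adjusted p 0.053 to 0.0651).

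Of 6 Cyp2j genes, a subfamily of arachidonic acid epoxygenases, only Cyp2j9 fell in WT LPS. It (probe set 10514520) read 7.47, 7.72, 7.92 and 7.99 untreated, 7.45, 7.02, 7.19 and 6.98 in WT LPS and 7.44, 7.41, 7.35 and 7.48 in S534A LPS livers. The WT groups met without overlapping, at 7.45 and 7.47, with a difference of -0.62 ± 0.12 (adjusted p = 0.00209). In S534A it was -0.35 ± 0.12 (adjusted p = 0.0443), with 1 S534A value (7.48) inside the untreated range.

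Among the Cyp4f genes, which inactivate leukotrienes and other eicosanoids, Cyp4f13, Cyp4f14 and Cyp4f15 fell in WT LPS and the other 6 of 9 were not called. Cyp4f13 (probe set 10449955) read 11.30, 11.38, 11.40 and 11.47 untreated, 11.00, 10.90, 11.03 and 10.96 in WT LPS and 11.01, 11.07, 11.02 and 10.91 in S534A LPS livers. The LPS groups lay together below the untreated one, with differences of -0.41 ± 0.06 (adjusted p = 0.000221) and -0.38 ± 0.06 (adjusted p = 0.000326).

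Cyp4f15 (probe set 10443898) read 11.44, 11.86, 11.47 and 11.91 untreated, 11.17, 10.96, 11.19 and 11.08 in WT LPS and 11.15, 11.06, 11.08 and 11.11 in S534A LPS livers. It fell by 0.57 ± 0.10 in each (adjusted p = 0.00141 and 0.00118), and between the LPS groups the difference was 0.00 with a 95% interval of -0.23 to 0.23. Cyp4f14 fell by 0.25 ± 0.07 in WT, a call lost without untreated replicate 3 (adjusted p = 0.0552), and Cyp2d26 lost its call without untreated replicate 2 or 4 or WT LPS replicate 1 (adjusted p 0.0558 to 0.0667). Cyp4b1, which activates furans and hydroxylates fatty acids, fell by 0.54 ± 0.11 in each LPS group. Cyp4f18, the leukotriene B4 hydroxylase of neutrophils, was not called (0.05; 95% interval -0.09 to 0.18), while 10 neutrophil markers rose. All Cyp4f18 values lay between 5.90 and 6.11, below the median of all probe sets (6.21), so a change may go unseen.

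Several of the best known hepatic P450 genes were not called in WT LPS. Cyp1a2, which oxidises caffeine and aromatic amines, differed by -0.13 (95% interval -0.36 to 0.11), Cyp2e1, the ethanol oxidase, by -0.13 (-0.29 to 0.03), and Cyp2f2 by -0.13 (-0.24 to -0.02; adjusted p = 0.0798). These intervals exclude a 2-fold change in either direction over these samples. Near the top of the array's range, differences can be compressed, which was not tested here.

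The Cyp3a subfamily, whose lead gene Cyp3a11 encodes a main drug- and steroid-oxidising enzyme, was lower in all 6 members after LPS in WT, and 3 fell (Cyp3a25, Cyp3a44 and Cyp3a57). Of these, Cyp3a57 read below the median of all probe sets on every array. Cyp3a25 (probe set 10535714) read 12.69, 12.53, 12.80 and 12.60 untreated, 12.15, 11.89, 12.13 and 12.17 in WT LPS and 12.44, 12.46, 12.53 and 12.27 in S534A LPS livers. The WT LPS values lay below both other groups, with a fall of 0.57 ± 0.09 from untreated (adjusted p = 0.000316). The S534A difference from untreated was -0.23 ± 0.09 (adjusted p = 0.0652). It was called without untreated replicate 2 or WT LPS replicate 2 (adjusted p 0.0308 to 0.0482).

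Cyp3a11 (probe set 10535704) read 13.41, 12.55, 13.28 and 12.85 untreated, 12.95, 12.43, 12.60 and 12.51 in WT LPS, and 13.11, 13.21, 13.22 and 13.18 in S534A LPS livers. The untreated livers spanned both LPS groups, with replicates 1 and 3 high and 2 and 4 low. The WT difference of -0.39 ± 0.17 was not called (adjusted p = 0.106), but it was without untreated replicate 2 or WT LPS replicate 1 (adjusted p 0.0139 to 0.044).

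Cyp3a44 (probe set 10535698), a gene with higher levels in females, read 8.25, 7.04, 8.03 and 7.44 untreated, 7.54, 6.58, 6.88 and 6.60 in WT LPS and 7.65, 7.75, 8.03 and 7.64 in S534A LPS livers. WT LPS overlapped untreated, and its fall of 0.79 ± 0.26 (adjusted p = 0.0393) was lost without untreated replicate 1 or 3, S534A LPS replicate 1, 2 or 4, or WT LPS replicate 2, 3 or 4 (adjusted p 0.0523 to 0.108).

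The Cyp4a subfamily, fatty acid omega-hydroxylases under PPARalpha, was lower in all 5 members after LPS in WT, and Cyp4a31 and Cyp4a10 fell. Cyp4a31 (probe set 10507171) read 11.01, 10.20, 10.66 and 11.22 untreated, 9.07, 8.85, 9.50 and 9.29 in WT LPS and 9.39, 9.88, 9.93 and 10.13 in S534A LPS livers. Both LPS groups lay below the untreated one, with falls of 3.02-fold in WT (-1.59 ± 0.22; adjusted p = 0.000147) and 1.92-fold in S534A (-0.94 ± 0.22; adjusted p = 0.00548).

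Cyp4a10 (probe set 10507163) read 12.01, 11.42, 11.77 and 12.04 untreated, 11.15, 11.16, 11.24 and 11.17 in WT LPS and 11.44, 11.52, 11.54 and 11.70 in S534A LPS livers. It fell by 0.63 ± 0.12 in WT (adjusted p = 0.00151), while in S534A the difference of -0.26 ± 0.12 was not called (adjusted p = 0.129) and was called without untreated replicate 2 (-0.39; adjusted p = 0.00465).

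Cyp4a14 (probe set 10515187) read 12.01, 10.43, 12.18 and 11.96 untreated, 11.29, 10.77, 10.66 and 9.56 in WT LPS and 12.26, 11.94, 11.26 and 12.15 in S534A LPS livers. Untreated replicate 2 lay below 3 of the 4 WT LPS values. The WT difference of -1.07 ± 0.41 was not called (adjusted p = 0.078) and was called without untreated replicate 2 or WT LPS replicate 1 (adjusted p 0.00793 to 0.0419). Cyp4a12a and Cyp4a12b, which make 20-HETE from arachidonic acid in males, differed by -0.11 (95% interval -0.37 to 0.16) and -0.22 (-0.47 to 0.03).

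**Figure D3:**
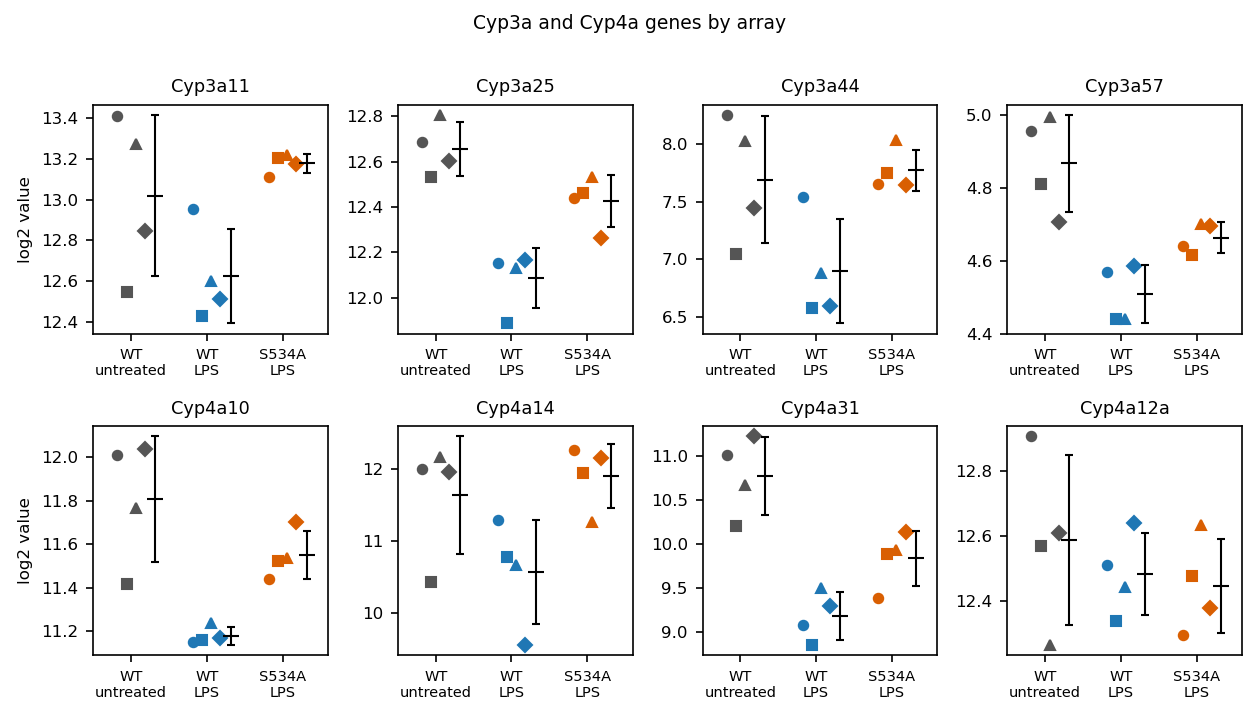
Log2 values of 4 Cyp3a genes (top) and 4 Cyp4a genes (bottom) by group, 1 point per liver with the shape giving the replicate number, and the mean with its SD beside them. The WT LPS values lie below all S534A LPS values in Cyp3a11, Cyp3a25, Cyp3a44, Cyp3a57 and Cyp4a10, and the untreated livers spread widely in Cyp3a11, Cyp3a44 and Cyp4a14.

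Another 7 probe sets carried several symbols with a P450 gene among them and were not tested. The set shared by Cyp3a59, Cyp3a57 and Cyp3a25 read 10.95 ± 0.20 (SD, n = 4) untreated, 9.84 ± 0.20 in WT LPS and 10.35 ± 0.14 in S534A LPS livers. The set shared by Cyp4a32, Cyp4a31 and Cyp4a10 read 12.45 ± 0.29, 11.60 ± 0.08 and 11.98 ± 0.20. The set shared by Cyp3a41b, Cyp3a44 and Cyp3a41a read 9.47 ± 0.44, 8.87 ± 0.17 and 9.48 ± 0.10. In these 3 sets the WT LPS mean was the lowest of the groups. The set shared by Cyp2a5, the coumarin hydroxylase, and Cyp2a4 read 12.65 ± 0.46, 12.07 ± 0.14 and 11.95 ± 0.15, with lower means in both LPS groups. Its untreated values were 12.29, 13.07, 12.21 and 13.01, so replicates 1 and 3 lay close to the highest WT LPS value of 12.20. Close paralogs may share signal in the single-symbol probe sets as well, so the Cyp3a and Cyp4a genes may not be independent measurements.

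The second comparison, S534A LPS against WT LPS, asks what the p65 substitution changed among these genes after LPS. No P450 gene was called, higher (against 0.166% of all genes) or lower (against 0.00502%); 18 of the 70 had an unadjusted p under 0.05 in limma, as had 1148 of all 19938 genes. With weights on the arrays, 4 were called higher (against 1.73% of all genes) and 1 lower (against 0.662%): Cyp3a11, Cyp3a25, Cyp3a44 and Cyp4a14 higher and Cyp2d37-ps lower. With every other setting tried, 0 were called. By range, 6 of the 70 genes had all S534A LPS values above all WT LPS values (3.25% of all genes did) and 3 had them below (1.18%).

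The 5 genes with the smallest p were Cyp3a25, Cyp2d37-ps, Cyp3a44, Cyp3a11 and Cyp4a14. Cyp3a25 was 0.34 ± 0.09 higher in S534A (95% interval 0.16 to 0.53; adjusted p = 0.201), Cyp3a44 0.87 ± 0.26 (0.31 to 1.43; 0.365), and Cyp3a11 0.55 ± 0.17 (0.19 to 0.91; 0.375). The 4 values of each group did not overlap in these 3 genes. The S534A Cyp3a11 values lay within 13.11 to 13.22, against 12.43 to 12.95 in WT LPS. Cyp4a14 was 1.33 ± 0.41 higher (0.44 to 2.23; adjusted p = 0.406), with overlapping values. Cyp2d37-ps (probe set 10430892) read 9.99, 10.24, 10.39 and 10.15 in WT LPS and 8.95, 9.16, 9.60 and 10.08 in S534A LPS livers (-0.74 ± 0.20; adjusted p = 0.291).

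By subfamily, all 6 Cyp3a genes had a higher mean in S534A LPS than in WT LPS (median 0.27), and in 5 the groups did not overlap. Many alternatives cannot alter this difference, such as untreated arrays left out, the replicate block or trend and robust eBayes. Among those that can, the direction held for all 6 Cyp3a genes with each LPS array left out and with array weights. It also held after repeated normalisation or median centring and without the 3 arrays with pancreas transcripts. Cyp3a16 and Cyp3a57 read below the median of all probe sets (6.21) on every array, and both are among the 5 without overlap. The filter on dim genes left 4 Cyp3a genes, all higher (median 0.45). Of 5 Cyp4a genes 4 were higher (median 0.37; 3 to 5 over the alternatives). All 10 Cyp2d genes were lower (median -0.16; at least 9 of 10 under every alternative that kept them all), and all 5 Cyp2b genes were lower (median -0.10; 4 of 5 under some alternatives). Over all genes the median was 0.01. These are directions of genes that were not called, in subfamilies of related sequence.

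**Figure D4:**
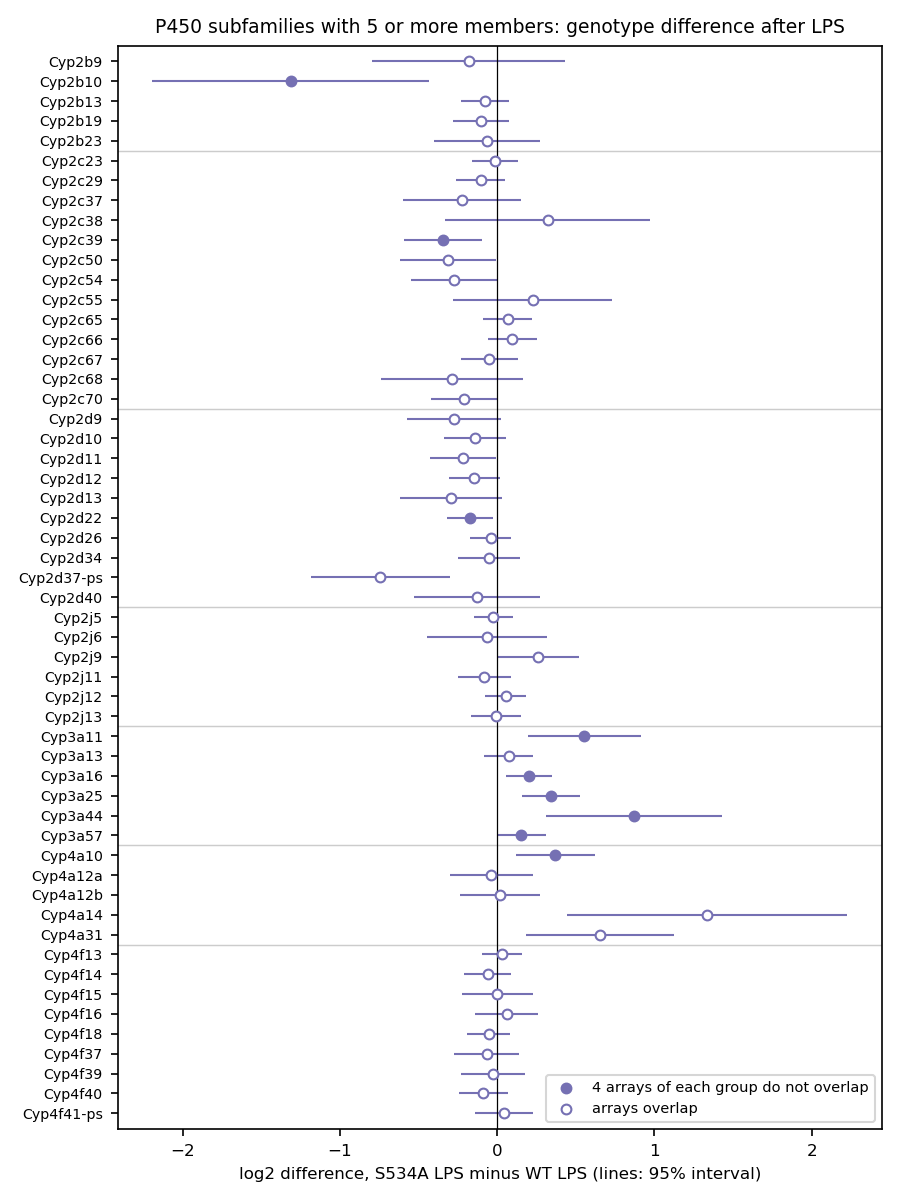
Log2 difference between S534A LPS and WT LPS livers with its 95% interval for the genes of the subfamilies with 5 or more members, Cyp2b, Cyp2c, Cyp2d, Cyp2j, Cyp3a, Cyp4a and Cyp4f; filled points mark groups that do not overlap. The Cyp3a points lie right of 0, the Cyp2d points left of it, and the Cyp4f points lie between -0.09 and 0.06; no gene was called.

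Cyp2b10 was 1.31 ± 0.41 lower in S534A LPS than in WT LPS (95% interval -2.19 to -0.43; adjusted p = 0.406), without overlap. Its highest S534A value was 9.62 and its lowest WT LPS value 9.81. Without the 3 arrays with pancreas transcripts the difference was -1.39 (adjusted p = 0.883). Cyp2c39 and Cyp2d22 were also lower without overlap, by -0.35 ± 0.11 (adjusted p = 0.48) and -0.17 ± 0.07 (adjusted p = 0.681). Beside the Cyp2d genes, of which Cyp2d9 is a male-biased steroid hydroxylase, all 8 male-biased liver genes measured had lower means in S534A LPS, and 0 were called. Of 8 female-biased genes 7 had higher means in S534A LPS (median 0.10), and 0 were called. One liver stood out in these sums, S534A LPS replicate 1. Its male-biased sum was 24232, against 28820 to 30921 in the other S534A LPS livers, and its female-biased sum 1307, against 669 to 814. Without this liver 9 of 10 Cyp2d genes were lower, with a median of -0.10. The part of this liver, of the sex-biased lists and of the neutrophil markers in the Cyp2b, Cyp2d and Cyp3a directions was not tested.

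The third comparison sets S534A LPS against the same untreated WT livers, so it is not independent of the first, and it joins genotype and LPS in one difference. There 25 of 70 genes fell (35.7%, against 16.0% of all genes) and 2 rose (against 11.0%), with a median of -0.17 against 0.03. All S534A LPS values lay below all untreated ones in 25 genes (17.5% of all genes) and above them in 3 (13.8%). The largest falls were those of Cyp2u1, Cyp2d13, Cyp2d37-ps, Cyp2c68, Cyp4a31, Cyp2c39, Cyp2r1, Cyp2a22, Cyp4f15 and Cyp2c50. Without the 3 arrays with pancreas transcripts 23 fell, against 14.6% of all genes, and 2 rose, against 10.5%.

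Cyp2d37-ps read 10.41, 10.69, 10.28 and 10.75 untreated, above all S534A LPS values, and fell 2.12-fold (-1.08 ± 0.20; adjusted p = 0.00139). In WT LPS its difference was -0.34 ± 0.20 (adjusted p = 0.258). Cyp2c50 (probe set 10463051) read 12.13, 12.37, 12.34 and 12.61 untreated, 11.97, 11.90, 12.23 and 12.38 in WT LPS and 11.48, 11.88, 12.07 and 11.79 in S534A LPS livers. It fell by 0.55 ± 0.14 in S534A (adjusted p = 0.00998), against -0.24 ± 0.14 in WT (adjusted p = 0.243). The direct comparison of the LPS groups called neither gene.

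In the subfamilies, 6 of 10 Cyp2d genes fell in S534A, 5 of 13 Cyp2c genes fell and 1 rose, 4 of 9 Cyp4f genes fell, 1 of 5 Cyp4a genes fell, and none of 6 Cyp3a genes was called (2 at an unadjusted p under 0.05). That 0 depended on the untreated livers and on other settings. Against replicates 2 and 4 alone Cyp3a11 was called higher, and against replicates 1 and 3 alone Cyp3a25 and Cyp3a57 were called lower. Cyp3a25 and Cyp3a57 were also called lower with array weights, with trend and robust eBayes and without WT LPS replicate 2. Cyp3a57 was called lower after a second quantile normalisation or median centring, and Cyp3a25 without the 3 arrays with pancreas transcripts. In the main fit Cyp3a57 had a limma adjusted p of 0.051, with all S534A LPS values below all untreated ones. For WT the same counts were 3, 3 and 0, 3, 2, and 3 of 6 Cyp3a. The 2 genes that rose were Cyp1b1 and Cyp2c66, both below the median of all probe sets. Cyp1b1 (probe set 10453057), which oxidises polycyclic hydrocarbons and estrogens, read 5.35, 5.29, 5.27 and 5.43 untreated, 5.48, 5.60, 5.58 and 5.45 in WT LPS and 5.78, 5.52, 5.51 and 5.53 in S534A LPS livers. Both LPS groups lay above the untreated one, with a rise of 0.25 ± 0.07 in S534A (adjusted p = 0.0204). Cyp2c66 (probe set 10463023) read 5.19, 5.42, 5.35 and 5.35 untreated, 5.50, 5.58, 5.40 and 5.30 in WT LPS and 5.47, 5.59, 5.56 and 5.56 in S534A LPS livers (0.22 ± 0.07; adjusted p = 0.0398).

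Of the 27 calls in S534A, 8 were lost when 1 array was left out. Cyp1b1 was lost without untreated replicate 2 or 3 or S534A LPS replicate 1 (adjusted p 0.0541 to 0.0595), and Cyp2c66 without untreated replicate 1, 3 or 4, S534A LPS replicate 2, 3 or 4 or WT LPS replicate 3 (0.0533 to 0.11). Cyp2c29 was lost without untreated replicate 3 or 4 or S534A LPS replicate 1, 2 or 4 (0.0563 to 0.107). Cyp2d9 was lost without untreated replicate 1, 2 or 4, S534A LPS replicate 4 or WT LPS replicate 1, 3 or 4 (0.0502 to 0.0912). Cyp2f2 was lost without any array but WT LPS replicate 2 (0.0557 to 0.121), Cyp2j5 without any untreated or S534A LPS array or WT LPS replicate 3 (0.0549 to 0.11). Cyp2j9 was lost without untreated replicate 2, 3 or 4, any S534A LPS array or WT LPS replicate 3 (0.0595 to 0.124), and Cyp4f40 without untreated replicate 1, 2 or 3, any S534A LPS array or WT LPS replicate 1, 3 or 4 (0.0507 to 0.124). These 8 differences were small, at 0.42 or less in size. Conversely, 10 genes that were not called gained a call when 1 array was left out. They were Cyp1a2, Cyp2b23, Cyp2c23, Cyp2c37, Cyp2c38, Cyp2d11, Cyp2d12, Cyp3a25, Cyp3a57 and Cyp4a10.

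Around the P450 genes, regulators of their transcription moved in both directions. Of 29 measured, 7 fell and 5 rose in WT LPS, and 13 fell and 5 rose in S534A LPS against untreated. Nr1i3 (CAR) read 10.22, 11.46, 10.47 and 11.62 untreated, 8.67, 8.60, 8.86 and 8.73 in WT LPS and 7.99, 8.57, 8.80 and 8.74 in S534A LPS livers. All LPS values lay below all untreated ones, a fall of 4.68-fold in WT (-2.23 ± 0.28; adjusted p = 7.54e-05), while its target Cyp2b10 rose in the same livers. Nr1i2 (PXR) fell by 0.63 ± 0.17 in WT (adjusted p = 0.0142) and by 0.78 ± 0.17 in S534A (adjusted p = 0.0033). Its WT call was lost under 3 alternatives, among them array weights and the fit without the 3 arrays with pancreas transcripts.

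Ppara, which drives the Cyp4a genes, fell by 0.58 ± 0.19 in WT and by 1.01 ± 0.19 in S534A; the coactivator gene Ppargc1a fell by 1.00 ± 0.21 and 1.06 ± 0.21. Stat5b, which carries the growth hormone signal to sex-biased P450 genes, fell by 0.46 ± 0.08 and 0.40 ± 0.08. Cebpb, an acute-phase regulator, rose by 0.84 ± 0.17 and 0.82 ± 0.17, and Hnf4a, which many P450 promoters need, rose by 0.38 ± 0.07 in WT and was 0.19 ± 0.07 higher in S534A (adjusted p = 0.0768). No regulator was called between the LPS groups. Of 13 PPARalpha targets outside the P450 family, 7 fell and 1 rose in WT LPS, and 4 fell and 1 rose in S534A; between the LPS groups 12 of the 13 had a higher mean in S534A and 0 were called. Cyp4a genes showed the same direction in that comparison, and neither was tested for a link.

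Partners of P450 catalysis fell in part. Of 5 measured electron transfer genes 4 fell in each LPS group, with Cyb5b, an outer mitochondrial cytochrome b5, at -0.55 ± 0.09 in WT and -0.57 ± 0.09 in S534A, and Pgrmc2 at -0.60 ± 0.12 and -0.47 ± 0.12. Por, the P450 reductase, had no probe set of its own and was not analysed here. Of 14 genes of heme synthesis and breakdown 5 fell and 2 rose in each LPS group. Hmox1, which degrades heme, rose by 0.57 ± 0.13 in WT and 0.66 ± 0.13 in S534A, and Cpox fell by 0.59 ± 0.13 and 0.57 ± 0.13. Alas1, the rate-limiting enzyme of heme synthesis, read 11.48, 12.48, 12.07 and 12.67 untreated, 12.63, 12.16, 12.55 and 12.62 in WT LPS and 11.13, 12.08, 11.94 and 11.69 in S534A LPS livers. It was lower in S534A than in WT LPS without overlap (-0.78; 95% interval -1.32 to -0.24; adjusted p = 0.442) and was not called. Of 11 enzymes that act on P450 products or beside them, 7 fell in WT LPS and 6 in S534A, among them Ces1d (-0.79 ± 0.12 and -0.88 ± 0.12), Fmo1 (-0.53 ± 0.08 and -0.54 ± 0.08) and Ephx1, the microsomal epoxide hydrolase (-0.53 ± 0.09 and -0.44 ± 0.09). General hepatocyte markers fell in part as well, 4 of 12 in WT and 3 in S534A. Their medians of -0.11 and -0.14 lay near the P450 medians of -0.13 and -0.17.

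The untreated livers were not alike. Dbp, a clock output gene whose protein drives several P450 genes, read 8.14, 11.19, 7.59 and 11.39 in untreated replicates 1 to 4, and Arntl, a core clock gene of opposite phase, read 9.03, 6.29, 9.08 and 6.20. Replicates 1 and 3 thus stood apart from replicates 2 and 4, while Dbp lay between 8.36 and 9.47 in all LPS livers. Across the same untreated livers, Nr1i3, Ppara and Cyp2b10 were lower in replicates 1 and 3 than in 2 and 4, and Cyp3a11 and Cyp3a44 were higher. Collection times were not among the sources used here, and the part of this split in the results was not tested. Against untreated replicates 2 and 4 alone, 18 P450 genes fell in WT LPS and 0 rose; Cyp2a12, Cyp2b10, Cyp2d10, Cyp3a44 and Cyp4f14 lost their calls. Against replicates 1 and 3 alone, 17 fell and 1 rose; Cyp3a11 and Cyp4a14 were then called, and Cyp2a12, Cyp2c38, Cyp2c39, Cyp2c68 and Cyp2d26 were not. These counts stand against 15.5% of all genes lower and 10.1% higher with replicates 2 and 4, and 12.4% and 8.46% with replicates 1 and 3.

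In S534A against untreated, 26 genes were called with replicates 2 and 4 alone, 18 of them among the 27 called with all arrays. Cyp1b1, Cyp2c29, Cyp2c66, Cyp2d9, Cyp2f2, Cyp2g1, Cyp2j5, Cyp4f14 and Cyp4f40 lost their calls, and Cyp1a2, Cyp2c23, Cyp2c37, Cyp2c38, Cyp2c67, Cyp2d12, Cyp2e1 and Cyp3a11 gained one. Cyp3a11 was then 0.48 ± 0.13 higher in S534A LPS (limma adjusted p = 0.0213), and with replicates 1 and 3 alone its difference was -0.16 (adjusted p = 0.442). With replicates 1 and 3 alone 22 genes were called, 19 of them among the 27. Cyp2c29, Cyp2c50, Cyp2c54, Cyp2d26, Cyp2d9, Cyp2f2, Cyp2j5 and Cyp2j9 lost their calls, and Cyp3a25 (-0.32; adjusted p = 0.0394), Cyp3a57 (-0.31; adjusted p = 0.00731) and Cyp4a10 gained one. Over all genes, 15.9% were called lower and 11.5% higher with replicates 2 and 4, and 13.0% and 9.8% with replicates 1 and 3.

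**Figure D5:**
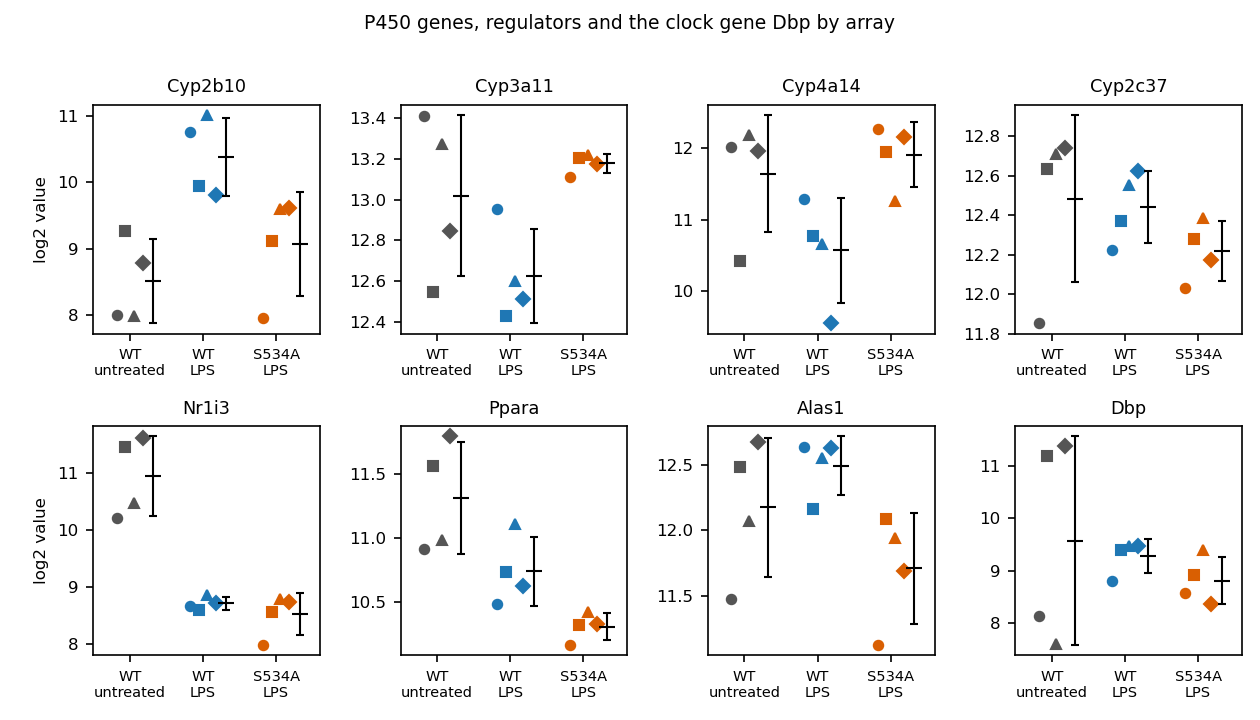
Log2 values of Cyp2b10, Cyp3a11, Cyp4a14, Cyp2c37, Nr1i3, Ppara, Alas1 and Dbp by group, 1 point per liver with the shape giving the replicate number (circle 1, square 2, triangle 3, diamond 4), and the mean with its SD beside them. Untreated replicates 1 and 3 lie apart from 2 and 4 in Dbp, Nr1i3, Ppara, Cyp2b10 and Cyp3a11, and Nr1i3 shows every LPS value below 9.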

How the data were processed

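RNA of each liver was hybridised to 1 Affymetrix whole-transcript array. The authors deposited log2 values. RMA, a background correction, quantile normalisation and probe summary, is named in the submitters' processing notes; neither its version nor a genome build is given in the sources used here. Log2 values between 3.43 and 14.48 resulted and were not normalised again.

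Of 35556 probe sets, 21789 carried 1 symbol, 1621 several and 12146 none; only the first kind was tested. Where a gene had several, the one with the highest mean over 12 arrays was kept, which left 19938 genes. Groups came from the labels' source names. Replicates are numbered in the order the samples are listed, and no label pairs the numbers across groups. Same-number arrays did not deviate together (correlations -0.268 to 0.215), which cannot show that no samples were matched. The main fit did not use the numbers as pairs.

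limma 3.58.1 in R 4.3.3 (lmFit, eBayes, two-sided) was fitted on all 12 arrays with 3 group means, 9 residual and 3.54 prior degrees of freedom, and Benjamini-Hochberg adjustment over all genes. Tables and figures were made with Python 3.11.15, pandas 2.3.3 and matplotlib 3.10.9. The fit was tested on simulated data with known changes.

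The members, gene lists and markers were chosen with earlier results of these data known. Named with values are, per comparison, up to 10 called members of largest difference in each direction, the 3 marker genes and the member of smallest p in WT LPS of each subfamily with 3 or more members; where none was called, the 5 of smallest p. Outside the members, Rela, Nr1i3, Nr1i2, Alas1, Hmox1 and Dbp were always named. Promoter sequences are RefSeq's (GRCm38.p6); the motifs were chosen after the data were seen. Alternatives were each array left out, a replicate block, trend and robust eBayes, median centring, array weights, a second quantile normalisation, a filter on dim genes (11968 kept), averaging the probe sets of a gene, only the 2 groups compared and a threshold of 0.01. Fits without the 3 arrays with pancreas transcripts and without either pair of untreated arrays were added after the data were seen.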

Additional observations from a re-analysis of the deposited data

Results flagged for a closer look

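In 12 of 210 groups of 4 livers, 1 value lay far from the other 3: its gap to the nearest, as a share of the group's range, passed Dixon's critical value at the 95% level. Chance gives about 1 in 20. Among genes discussed above, Cyp4a14 was low in untreated replicate 2 (10.43, next 11.96; share 0.875), Cyp3a25 low in WT LPS replicate 2 (11.89, next 12.13; 0.873), and Cyp1b1 high in S534A LPS replicate 1 (5.78, next 5.53; 0.92). S534A LPS replicate 1 was also low in Cyp2d22 (12.11, next 12.26; 0.924) and Cyp2d26 (13.10, next 13.18; 0.851). Untreated replicate 1 was low in Cyp2c37 (11.85, next 12.63; 0.879) and high in Cyp2j13 (4.80, next 4.61; 0.881). Cyp2g1 was low in untreated replicate 2 (5.20; 0.859) and in WT LPS replicate 3 (5.13; 0.862), Cyp2j6 low in WT LPS replicate 2 (9.11; 0.875), Cyp3a16 high in WT LPS replicate 3 (4.24; 0.865) and Cyp4f37 low in untreated replicate 4 (4.83; 0.842).

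Cyp3a11 had its WT LPS mean below the untreated mean (-0.39) and its S534A LPS mean above it (0.16). The difference of 0.55 between the LPS groups was not called (limma adjusted p = 0.375).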

How the results depend on the processing

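Over 23 alternatives, 0 of the values of members called in the comparisons with untreated liver changed sign. Many of these alternatives leave a difference as it was and could not change its sign. Examples are arrays of the third group left out, the replicate block and trend and robust eBayes. Between the LPS groups no member was called, so there was none to follow. With 1 array left out, 17 to 22 P450 genes were called in WT LPS (21 with all arrays), 20 to 31 in S534A LPS against untreated (27) and 0 between the LPS groups. Without the 3 arrays with pancreas transcripts 13 were called in WT LPS, and with array weights 5 between the LPS groups; the cause of the latter was not tested. At a threshold of 0.01 the counts were 14, 18 and 0. With the replicate block they were 20, 22 and 0; Cyp2c38 lost its WT call there, and Cyp2c29, Cyp2c66, Cyp2f2, Cyp2j5, Cyp2j9 and Cyp4f40 theirs in S534A, where Cyp1a2 gained one. No pairing of the numbers is known. For single arrays left out, the threshold of 0.01 and the replicate block, shares of all genes are not given here.

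Values that changed sign belonged to uncalled differences, and the cause was not tested. Against untreated replicates 1 and 3 alone, Dbp was 1.42 higher in WT LPS (adjusted p = 0.00349) and 0.95 in S534A (adjusted p = 0.0287), and the S534A differences from untreated were -0.16 for Cyp3a11, -0.37 for Cyp3a44 and -0.19 for Cyp4a14. Against replicates 2 and 4 alone, Alas1 differed by -0.085 in WT LPS. With array weights, Dbp differed by 0.64 in WT LPS and 0.13 in S534A, Cyp3a44 in S534A by -0.097, and Cyp4f15 between the LPS groups by -0.049 (-0.0057 after quantile normalisation). Without the pancreas arrays, Cyp3a44 in S534A was -0.0088, and between the LPS groups Cyp2a22 was -0.0087, Cyp2r1 -0.041 and Cyp4f15 -0.018. With 1 array left out, Dbp in WT LPS ran from -0.96 to 0.31, Cyp3a44 in S534A from -0.14 to 0.26 and Cyp4a14 in S534A from -0.14 to 0.48. Between the LPS groups Cyp1b1 ran from -0.004 to 0.086 and Cyp4f15 from -0.046 to 0.031.

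Signal over background limits the 25 dimmer genes: 3 of them were called in WT LPS and 6 in S534A LPS. In WT LPS these were Cyp2a22, Cyp2c39 and Cyp3a57, all lower. In S534A LPS Cyp1b1 and Cyp2c66 were higher, and Cyp2a22, Cyp2c39, Cyp2g1 and Cyp4f40 lower. Of all genes, bright or dim, 15.6% fell and 9.34% rose in WT LPS, and 16.0% and 11.0% in S534A LPS. The share among dim genes alone is not given here.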
